A study of Homo sapiens with 7 samples.

Results

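The ATF4 amino acid response was followed through 7 lines of K562, a long-established line from chronic myeloid leukemia with the BCR::ABL1 fusion. Members were the rows of the raw counts table whose symbol, taken from the authors' gene tables by gene ID, stands on a list of 42 known targets and regulators of ATF4. Of the 42 genes listed, 40 were found in this way, among 25702 gene IDs with counts. The other 2, NUPR1 and VLDLR, were found by their RefSeq symbol only and lay below the expression limit for testing. RNA was sequenced from a drug naive line and a DMSO vehicle line (control), from DasR intermediates growing in 10, 15 and 25 nM dasatinib (early stage) and from DasR intermediates growing in 50 and 200 nM dasatinib (late stage). Dasatinib inhibits the BCR::ABL1 kinase, and the DasR lines were obtained from K562 by stepwise increase of the dose. All lines were grown in RPMI medium with fetal calf serum and added L-glutamine, and the DMSO line was carried in parallel with the escalation.

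There was 1 library per line, and the control libraries held 21007761 (drug naive) and 24037893 (DMSO) counts. The early stage libraries held 27808639, 27844799 and 20059656 counts in order of dose, and the late stage libraries 20827519 and 21588772. The lines of a stage served as its replicates. They differ in dose and descend from a single culture, so the p-values measure only the spread between these lines. The division into early and late stage is that of the study, which took it from clustering of the same libraries. Differences between lines of the same group exceeded counting noise (chi-square divided by its degrees of freedom, 21.1 to 70.1). Levels are given as CPM (counts scaled to the size of the library), adjusted between libraries by the TMM method, and at these depths 3 counts correspond to between 0.108 and 0.150 CPM. In bulk RNA, fewer cells that express a gene and less RNA per cell cannot be told apart.

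ATF4 is a transcription factor whose protein is made in larger amounts when the translation factor eIF2α is phosphorylated. The kinases that do so respond to uncharged tRNA (GCN2, encoded by EIF2AK4), unfolded protein in the endoplasmic reticulum (PERK, EIF2AK3), heme shortage (HRI, EIF2AK1) and double-stranded RNA (PKR, EIF2AK2). Together with C/EBP family partners, ATF4 binds composite response elements and switches on genes for amino acid synthesis, amino acid uptake and tRNA charging, along with feedback genes that end the response. Because the level of ATF4 is set in large part by translation, its mRNA need not follow its activity.

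The composite element was searched for as the letters TGATGNAA on either strand (TTNCATCA when read on the other strand) in RefSeq promoter windows on GRCh38.p14, each 300 bases long, from 250 bases before to 50 bases after the gene start. Of the 32 members with a window, 9 held a match (28.1%), compared with 1217 of 27305 windows in the whole table (4.46%) and 210 of 8339 windows of the genes tested here (2.52%). By role, a match was found for 4 of 7 amino acid transporters with a window, 3 of 7 transcription regulators, 1 of 5 feedback and stress effectors, 1 of 5 enzymes outside serine metabolism, 0 of 3 serine and one-carbon enzymes and 0 of 5 secreted and other genes. The matches that lie upstream of the gene start are shown because their spelling and position vary between members. Each is written 5′ to 3′ on the strand of its gene, with the matching letters in capitals and the flanking bases in lower case, and with 16 to 209 bases between the first capital and the start. The match of CHAC1 is on the opposite strand, so that its capitals show the reverse reading.
ASNS (chr7:97872439-97872506, minus strand): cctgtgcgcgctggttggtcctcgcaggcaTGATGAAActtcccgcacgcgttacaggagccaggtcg
ATF3 (chr1:212565186-212565253, plus strand): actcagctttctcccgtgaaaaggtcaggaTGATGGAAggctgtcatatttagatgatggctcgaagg
CEBPG (chr19:33374041-33374108, plus strand): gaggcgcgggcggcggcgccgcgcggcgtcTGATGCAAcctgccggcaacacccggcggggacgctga
CHAC1 (chr15:40953232-40953299, plus strand): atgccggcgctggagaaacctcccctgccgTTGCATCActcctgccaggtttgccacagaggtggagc
JDP2 (chr14:75427976-75428021, plus strand): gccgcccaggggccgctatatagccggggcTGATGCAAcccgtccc
SLC1A5 (chr19:46784874-46784941, minus strand): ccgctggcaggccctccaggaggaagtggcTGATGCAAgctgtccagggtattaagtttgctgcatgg

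The ASNS match lies 68 bases before the start, and the ATF3 and CHAC1 matches lie farther out, at 191 and 209 bases. The SLC1A4, SLC3A2 and SLC7A1 windows also hold a match, at or close to the gene start. A match is a description of the letters in these windows, and a window without one says nothing about binding elsewhere.

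The RNA of the ATF4 response was lower in all 5 DasR lines than in both controls. Summed over the 40 members tested, the level was 12300 CPM in the drug naive line and 11920 CPM in the DMSO line. It was 4137 CPM at 10 nM, 4053 CPM at 15 nM and 4319 CPM at 25 nM, and it was higher again at 50 nM, with 5053 CPM, and at 200 nM, with 6362 CPM. On the log2 scale and relative to the control mean, the mean over members was -1.72, -1.79 and -1.70 in the 10, 15 and 25 nM lines, -1.41 at 50 nM and -1.10 at 200 nM. With 1 library per line, these levels have no error of their own. Below both controls lay 39 members in the 10, 25 and 50 nM lines, 38 in the 15 nM line and 36 in the 200 nM line, where between 42.2% and 44.7% of all genes tested did so.

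**Figure D1:**
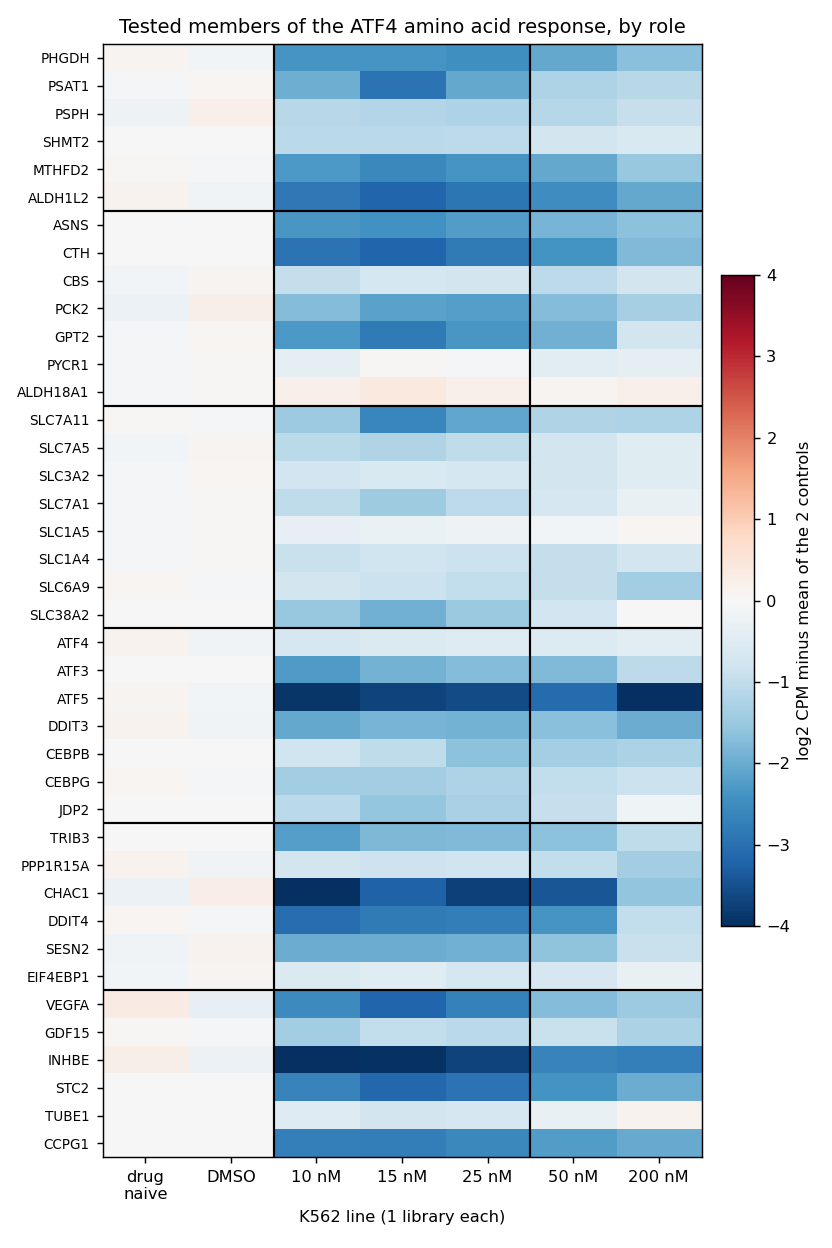
Heat map of the 40 members tested (rows, grouped by role) in the 7 K562 lines (columns, 1 library each), coloured by log2 CPM minus the mean of both controls. Nearly all rows are blue in the 10, 15 and 25 nM lines and paler at 50 and 200 nM, while PYCR1, ALDH18A1 and SLC1A5 stay close to the control colour.

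The first comparison asked which genes distinguish the early stage intermediates from the control lines. At an FDR of 0.005, 33 of the 40 members tested fell in the 10, 15 and 25 nM lines (82.5%), against 10.1% of all 10452 genes tested, by the quasi-likelihood test of edgeR and Benjamini-Hochberg adjustment over all genes. None rose, against 7.92% of all genes. The members were chosen with earlier results of these data known, so their shares describe the list and are not independent support. DESeq2 and limma-voom likewise called no member higher at this FDR, and at an unadjusted p under 0.05 only ALDH18A1 was higher. The decreases ranged from 1.52-fold for ATF4 itself to 16.4-fold for INHBE, and the median log2 fold change of the members was -1.77, where that of all genes was 0.00. Every early stage line lay below both controls for 38 of the 40 members, against 35.1% of all genes. The count of 33 depended on the libraries in the fit, although no log2 fold change of the 33 moved by more than 0.35 when 1 was left out. It was 16 without the drug naive line, 14 without the DMSO line and 19 without the 25 nM line, where 1.23%, 2.79% and 3.27% of all genes tested in the same fits were lower, and 14 members kept their call with any single library left out (PHGDH, SHMT2, MTHFD2, ALDH1L2, ASNS, CTH, PCK2, ATF5, DDIT3, CEBPG, VEGFA, INHBE, STC2 and CCPG1).

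All 6 serine and one-carbon enzymes fell in the early stage, against 10.1% of all genes, and at least 4 kept the call with any single library left out. PHGDH, which takes the first committed step from glycolysis to serine, was at 406.8 CPM in the drug naive line, 347.1 in DMSO, 73.0, 73.7 and 69.1 in the lines of 10, 15 and 25 nM, followed by 91.0 (50 nM) and 119 (200 nM). The DasR lines did not overlap the controls, and both late stage lines lay above all early stage lines. Its log2 fold change in the early stage was -2.39 (SE 0.13, FDR 7.76e-05). PSAT1 and PSPH, which complete the pathway to serine, fell by 2.25 and 1.19 on the log2 scale. PSAT1 was lowest at 15 nM, with 45.5 CPM against 92.0 at 10 nM and 86.0 at 25 nM, and the controls had 332 and 377 CPM. In the mitochondrion, SHMT2 passes the one-carbon unit of serine to folate, MTHFD2 oxidises it and ALDH1L2 releases it as carbon dioxide. MTHFD2 had 703.7 CPM in the drug naive line and 655 in DMSO, between 112 and 136.5 CPM in the early stage lines, 164 (50 nM) and 237 (200 nM), a 5.36-fold decrease in the early stage. ALDH1L2 fell 7.88-fold and SHMT2 2.09-fold.

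Among the other enzymes of amino acid and carbon metabolism, ASNS makes asparagine from aspartate and is a classical readout of amino acid limitation. It was at 922 CPM in the drug naive line, 941 in DMSO, 184, 174 and 197 in the lines of 10, 15 and 25 nM, followed by 258 (50 nM) and 296.5 (200 nM). The controls agreed closely, the early stage lines formed the lowest group and both late stage lines lay between. The log2 fold change of ASNS was -2.33 (SE 0.10, FDR 6.17e-05) in the early stage. CTH, which releases cysteine in the transsulfuration pathway, had 135 and 129 CPM in the controls, fell 7.97-fold and lay between 14.6 and 18.3 CPM in every early stage line. CBS, the enzyme before CTH in that pathway, fell only 1.75-fold. GPT2, a mitochondrial alanine aminotransferase, fell 5.60-fold and PCK2, the mitochondrial PEP carboxykinase, 4.06-fold.

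Both members that make proline stood apart in the early stage. PYCR1, which catalyses the last step, was at 264 CPM in the drug naive line, 279 in DMSO, 213, 284 and 260.4 in the lines of 10, 15 and 25 nM, followed by 203 (50 nM) and 205 (200 nM). The early stage lines overlapped the controls, with a log2 fold change of -0.11 (SE 0.12, FDR 0.51). Both late stage lines of PYCR1 lay below both controls, with a log2 fold change of -0.41 (SE 0.14, edgeR, FDR 0.0532). ALDH18A1, which catalyses the first steps, had 85.1 and 91.7 CPM in the controls, and its early stage lines lay above both, at 102, 116 and 102 CPM, with a log2 fold change of 0.27 (SE 0.10, FDR 0.0509). It was the only tested member with a positive fold change against the controls.

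Of the 8 amino acid transporters, 7 fell in the early stage lines, against 10.1% of all genes. Of these 7 calls, none was kept without the DMSO line, 1 without the drug naive line, 1 without the 25 nM line and 4 without the 10 nM or the 15 nM line. SLC7A11, which imports cystine in exchange for glutamate, was at 395 and 362 CPM in the drug naive and DMSO lines, 138, 61.5 and 89.4 in the lines of 10, 15 and 25 nM, followed by 166 (50 nM) and 159 (200 nM). The early stage lines lay apart from one another and below all other lines, and its log2 fold change was -1.98 (SE 0.28, FDR 0.00202). SLC3A2, the heavy chain that pairs with SLC7A11 and with the leucine transporter SLC7A5, fell 1.62-fold, and SLC7A5 fell 2.15-fold. SLC38A2, a sodium-coupled carrier of small neutral amino acids and glutamine, was at 652 and 669 CPM in the controls, 231, 173 and 238 in the lines of 10, 15 and 25 nM, followed by 386.5 (50 nM) and 655 (200 nM). Its early stage lines lay well below the controls, whereas the 200 nM line lay between them. The arginine and lysine carrier SLC7A1 fell 2.23-fold, the neutral amino acid exchanger SLC1A4 1.80-fold and the glycine transporter SLC6A9 1.81-fold. SLC1A5, the glutamine transporter, did not pass, with 566 and 610.2 CPM in the controls, 472, 488 and 513 CPM across the early stage lines and a log2 fold change of -0.26 (FDR 0.0549).

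**Figure D2:**
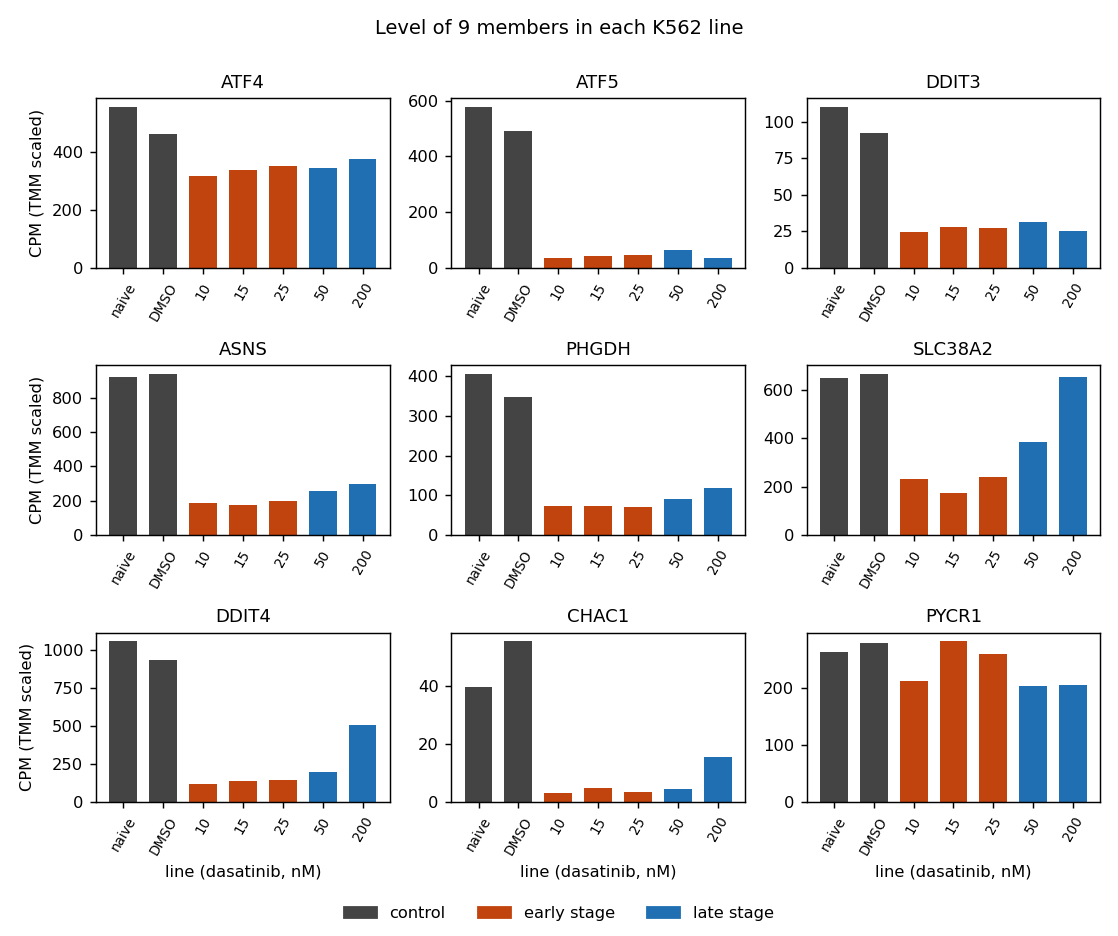
Bars give the level (CPM, TMM scaled, each axis from 0) of 9 members in each of the 7 lines, coloured by stage, with 1 library per bar and so no error bar. ATF5 and DDIT3 stay low at 200 nM, SLC38A2 at 200 nM (655 CPM) is at the level of the controls, DDIT4 and CHAC1 lie between, and PYCR1 lies between 203 and 284 CPM in all lines.

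Among the transcription regulators, ATF4 mRNA had the smallest decrease of the members called. It was at 557 CPM in the drug naive line, 462 in DMSO, 316, 338 and 350.2 in the lines of 10, 15 and 25 nM, followed by 345 (50 nM) and 377 (200 nM). All DasR lines lay below both controls and close to one another. The log2 fold change in the early stage was -0.61 (SE 0.10, FDR 0.00381), a call that was lost when either control or any of the early stage lines was left out, with an FDR of up to 0.0271. ATF5, a related bZIP factor that is also under translational control, fell further. It was at 579 and 493 CPM in the controls, 36.0, 40.6 and 44.9 in the lines of 10, 15 and 25 nM, followed by 62.5 (50 nM) and 33.8 (200 nM). All 5 DasR lines lay far below both controls, and its log2 fold change was -3.73 (SE 0.25, FDR 0.000152) in the early stage.

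DDIT3, which encodes the stress factor CHOP, was at 111 and 92.6 CPM in the controls and lay between 24.2 and 31.6 CPM in the 5 DasR lines, with a log2 fold change of -1.94 (SE 0.13, FDR 0.00017). ATF3 fell 3.88-fold, and CEBPG, which pairs with ATF4 on the composite element, fell 2.52-fold. CEBPB and JDP2, 2 further bZIP factors, lay just beyond the limit, with an FDR of 0.00607 and 0.00603 and log2 fold changes of -1.11 and -1.32. NUPR1, a small stress-induced nuclear protein, had 116 (drug naive) and 51 (DMSO) counts in the controls, 2, 4 and 1 counts in the early stage lines and 5 counts in each late stage line, and was not tested.

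Of the 6 feedback and stress effectors, 5 fell in the early stage, against 10.1% of all genes, with decreases from 1.73-fold for PPP1R15A to 12.6-fold for CHAC1. None of the 5 calls was kept without the drug naive line or without the DMSO line, 2 were kept without the 25 nM line and 3 without the 10 nM line. CHAC1, which breaks down glutathione, was at 39.4 CPM in the drug naive line, 55.6 in DMSO, 2.89, 4.92 and 3.43 in the lines of 10, 15 and 25 nM, followed by 4.28 (50 nM) and 15.6 (200 nM). Its log2 fold change was -3.66 (SE 0.50, FDR 0.00164), the largest standard error among the members. CHAC1 and JDP2 reached 10 CPM in 2 libraries only with the help of the controls, so that both could be tested only because they were high there, and the test of CHAC1 is given as a description. Leaving out both, 32 of 38 members fell among early stage lines and 19 among late stage lines, and 4 of 5 feedback and stress effectors fell in the early stage. DDIT4, an inhibitor of the growth kinase complex mTORC1, was at 1059 and 931 CPM in the controls, 119, 140 and 145 CPM across the early stage lines, 195 (50 nM) and 504 (200 nM). It fell 7.39-fold in the early stage. SESN2, another mTORC1 inhibitor, fell 3.93-fold and the pseudokinase TRIB3, which restrains ATF4, fell 3.79-fold. PPP1R15A, which directs a phosphatase to eIF2α and so ends the response, fell 1.73-fold. EIF4EBP1, a repressor of translation initiation, did not pass, with a log2 fold change of -0.60 and an FDR of 0.00921.

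Of the secreted and other products, INHBE, which encodes an inhibin beta chain, had the largest decrease of the tested members. It was at 108 and 78.3 CPM in the controls, 4.15, 5.91 and 7.02 in the lines of 10, 15 and 25 nM, followed by 14.2 (50 nM) and 13.8 (200 nM), with a log2 fold change of -4.04 (SE 0.23, FDR 9.71e-05). Both late stage lines lay above the early stage lines and far below the controls. The secreted glycoprotein STC2 fell 7.52-fold and the stress cytokine GDF15 2.22-fold. CCPG1, a receptor for autophagy of the endoplasmic reticulum, had the smallest FDR of the members. It was at 437 and 433 CPM in the controls, 65.2, 63.1 and 72.5 CPM across the early stage lines, 92.5 (50 nM) and 107.5 (200 nM), with a log2 fold change of -2.70 (SE 0.10, FDR 4.07e-05). VEGFA, the angiogenic factor, was the only tested member for which the controls differed by 1.5-fold or more, with 847 CPM in the drug naive line and 542.5 CPM in DMSO, where 4.54% of all genes differed as much. It had 116, 75.8 and 104 CPM across the early stage lines, a 7.05-fold decrease. TUBE1, a tubulin, did not pass, with a log2 fold change of -0.63 and an FDR of 0.0101. VLDLR, a lipoprotein receptor, had 111 and 94 counts in the controls and between 11 and 20 counts in each DasR line, and was not tested.

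**Figure D3:**
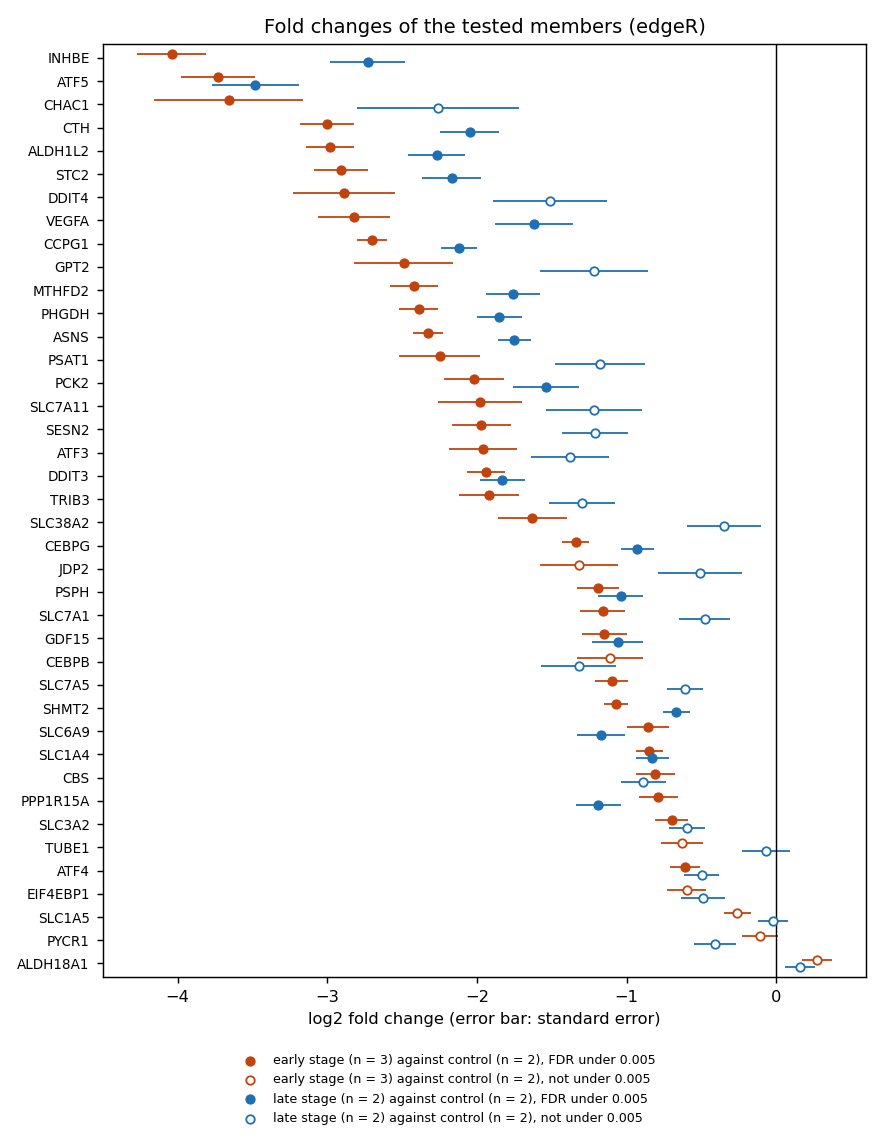
Log2 fold changes of the 40 members tested against the control lines (horizontal axis), ordered by the early stage value, with early stage in orange and late stage in blue. Bars are standard errors, and filled points passed an FDR of 0.005 (33 early stage and 19 late stage members), with most late stage points to the right of the early stage ones.

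Compared per kilobase of transcript, the controls expressed DDIT4 most, with a mean level of 568 CPM per kb, followed by ASNS with 369, MTHFD2 with 297 and ATF4 with 252. In the early stage lines ATF4 led, with 166 CPM per kb, followed by SLC1A5 with 153, PYCR1 with 122 and CBS with 104, and DDIT4 and ASNS were at 76.9 and 73.3. The members at the top of the early stage order were thus those with small or no decreases.

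The second comparison set the late stage intermediates against the same control lines. At an FDR of 0.005, 19 of the 40 members fell at 50 and 200 nM (edgeR, Benjamini-Hochberg adjustment), against 4.56% of all genes tested. None rose, against 3.42% of all genes, and none was higher at an unadjusted p under 0.05, nor by DESeq2 or limma-voom at the same FDR. The decreases ranged from 1.59-fold to 11.2-fold, the median log2 fold change was -1.20 against -0.00 for all genes, and both late stage lines lay below both controls for 36 members, against 34.9% of all genes. The 19 were also among the 33 of the early stage, which rests on the same controls. The count was 2 without the drug naive line, 7 without DMSO, 12 without the 25 nM line and 11 without the 50 nM line, where 0.147%, 0.529%, 1.66% and 1.67% of all genes were lower. Only ASNS and CCPG1 kept their call with any single library left out. No log2 fold change of the 19 moved by more than 0.51 in these fits.

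By role, 5 of 6 serine and one-carbon enzymes and 5 of 6 secreted and other genes fell in the late stage, compared with 3 of 7 other enzymes, 3 of 7 transcription regulators, 2 of 8 transporters and 1 of 6 feedback and stress effectors, where 4.56% of all genes fell. Without the drug naive line, the calls kept were 0 of 5, 1 of 5, 1 of 3, 0 of 3, 0 of 2 and 0 of 1 in the same order, and without the DMSO line 2, 2, 1, 2, 0 and 0. With 1 of the DasR lines left out, between 3 and 4 of the 5 serine and one-carbon calls and between 2 and 4 of the 5 calls of secreted and other genes were kept. ATF5 had the largest decrease, with a log2 fold change of -3.48 (SE 0.29, FDR 0.000674). INHBE fell 6.65-fold, ALDH1L2 4.83-fold, STC2 4.52-fold, CCPG1 4.36-fold, CTH 4.15-fold, PHGDH 3.60-fold and ASNS 3.37-fold. DDIT3 fell by 1.83 on the log2 scale. PPP1R15A and SLC6A9 fell 2.28-fold and 2.24-fold. ATF4 itself did not pass in the late stage, with a log2 fold change of -0.50 (SE 0.12, FDR 0.0169). Neither did SLC38A2, with -0.35 (SE 0.25, FDR 0.315), or DDIT4, with -1.51 (FDR 0.0217).

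The direct test of late against early stage lines called no gene at an FDR of 0.005 (0.0% of all genes, edgeR's quasi-likelihood test). By the same FDR, DESeq2 called 16 members higher, against 5.41% of all genes, and limma-voom none. At an FDR of 0.05, 19 of the 40 members rose from early to late stage lines, between 1.32-fold and 2.59-fold, against 6.60% of all genes tested. Because clustering of the same libraries set the stages, the FDR values of this comparison are not independent of the grouping. None fell, against 6.10% of all genes, while at an unadjusted p under 0.05 there were 26 members higher and 2, PYCR1 and PPP1R15A, lower. DESeq2 called 1 member lower at an FDR of 0.05 and limma-voom none. Among the members called, the log2 difference was largest for DDIT4 (1.37, FDR 0.0413), INHBE (1.31, FDR 0.0196) and SLC38A2 (1.28, FDR 0.0196), and the smallest FDR of a member was that of ASNS (0.58, FDR 0.0185). Both late stage lines lay above every early stage line for 24 members, against 26.6% of all genes. The rising members included 5 of the 6 serine and one-carbon enzymes (all but PSPH) and only CEBPG of the 7 transcription regulators. For ATF5 and DDIT3 the log2 differences were 0.25 (FDR 0.508) and 0.10 (FDR 0.633).

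The calls depended on the libraries in the fit. Without the 200 nM line the late stage is the 50 nM line alone, assumed to vary like the other groups, and no member passed an FDR of 0.05. All 19 differences were still positive there, between 0.318 and 1.33 on the log2 scale. They were 1.33 for INHBE, 1.05 for VEGFA and 1.01 for PSAT1, close to the values with both lines, but 0.53 for DDIT4 and 0.54 for GPT2. Without the 50 nM line the differences were 1.90 for DDIT4, 1.75 for GPT2 and 1.29 for INHBE. Fewer members were called higher at an FDR of 0.05 with an early stage line left out, where the share of all genes was not computed. Between both late stage lines, the 200 nM line had the higher level for 33 of the 40 members, with a median ratio of 1.19, where 49.6% of all genes tested were higher and the median ratio was 0.998. Members at least 1.5-fold higher at 200 nM than at 50 nM were CTH, GPT2, SLC38A2, ATF3, JDP2, TRIB3, CHAC1, DDIT4 and SESN2, 9 of 40 against 3.12% of all genes. GPT2, for example, had 13.6 CPM (50 nM) and 31.4 CPM (200 nM), with 48.8 and 55.4 CPM in the controls. The 1 member at least 1.5-fold lower at 200 nM was ATF5, where 6.13% of all genes were. These ratios compare single libraries and have no replicate check.

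The groups of members differed in how they stood from line to line. The mean log2 level of the feedback and stress effectors relative to the controls was -2.09, -1.86 and -1.95 in the lines of 10, 15 and 25 nM, then -1.78 (50 nM) and -1.03 (200 nM). For the serine and one-carbon enzymes it was -1.94, -2.22, -2.00, -1.61 and -1.31 in the same order. The transcription regulators had -1.74, -1.71, -1.69, -1.48 and -1.40, the smallest difference between the early stage and 200 nM lines. The transporters stayed closest to the controls, with -0.97, -1.22, -1.04, -0.76 and -0.57. Within the early stage, 18 members were lowest at 15 nM, 15 at 10 nM and 7 at 25 nM.

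Genes around the ATF4 pathway were described with lists apart from the members. These lists too were chosen with earlier results of these data known, so their shares are a description only. Of 13 aminoacyl-tRNA synthetases and tRNA exporter genes that are regulated with ATF4, 11 fell among early stage lines and 6 among late stage lines (edgeR, FDR of 0.005), against 10.1% and 4.56% of all genes. All 13 fold changes were negative in both comparisons, with medians of -0.92 and -0.59 on the log2 scale. The tryptophanyl enzyme WARS was at 1192 and 1217 CPM in the controls, 271, 185 and 233 CPM across the early stage lines, 423 (50 nM) and 449.6 (200 nM). Its log2 fold change was -2.39, and those of AARS and SARS, which charge alanine and serine tRNA, were -1.33 and -1.08 in the early stage. The early stage count was 6 without the drug naive line, and the late stage count was 0 without either control, the 25 nM line or either late stage line, and 3 without the 10 nM line.

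Of 18 eIF2α kinases, eIF2B subunits and other regulators upstream of ATF4, 1 fell and 1 rose in the early stage, close to the shares of all genes (10.1% and 7.92%), and the median log2 fold change was 0.19. The 1 that fell was EIF2AK3, the kinase of the endoplasmic reticulum, with a log2 fold change of -0.80 (SE 0.14, FDR 0.00376). EIF2B1, a subunit of the exchange factor that phosphorylated eIF2α inhibits, rose by 0.75. EIF2AK1 had 404 and 359 CPM in the controls and lay between 467 and 634 CPM in the early stage lines (log2 fold change 0.47, FDR 0.0492). EIF2AK2 and EIF2AK4 had log2 fold changes of 0.26 (FDR 0.0853) and -0.35 (FDR 0.046). RNA levels of these kinases do not measure their activity, and phosphorylation of eIF2α was not analysed here.

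The XBP1 and ATF6 arms of the unfolded protein response, which act beside PERK, were also lower. Of 21 genes, 15 fell among early stage lines and 9 among late stage lines (edgeR, FDR of 0.005), against 10.1% and 4.56% of all genes, with median log2 fold changes of -0.85 and -0.62. None rose at this FDR or at 0.05, and in the early stage 20 of the 21 fold changes were negative. HSPA5, the chaperone BiP, was at 1844 CPM in the drug naive line, 1494 in DMSO, 405, 403 and 448 in the lines of 10, 15 and 25 nM, followed by 552 (50 nM) and 523 (200 nM). The DasR lines did not overlap the controls, and the log2 fold changes of HSPA5 were -2.00 (early stage) and -1.64 (late stage). HYOU1, another chaperone, fell 2.84-fold and EDEM1, which routes misfolded glycoproteins to degradation, 2.53-fold in the early stage. In the late stage ERN1, the sensor IRE1, fell by 1.83 and SEL1L, of the degradation machinery, by 1.75. XBP1 and ATF6 themselves fell by 0.78 and 0.77 among early stage lines, whereas the late stage values were -0.34 (FDR 0.115) and -0.55 (FDR 0.00946). The early stage count was 7 without the drug naive line and 9 without the 25 nM line. The late stage count was 1 without the drug naive line, 5 without DMSO, the 15 nM or the 25 nM line, and 4 without the 200 nM line.

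**Figure D4:**
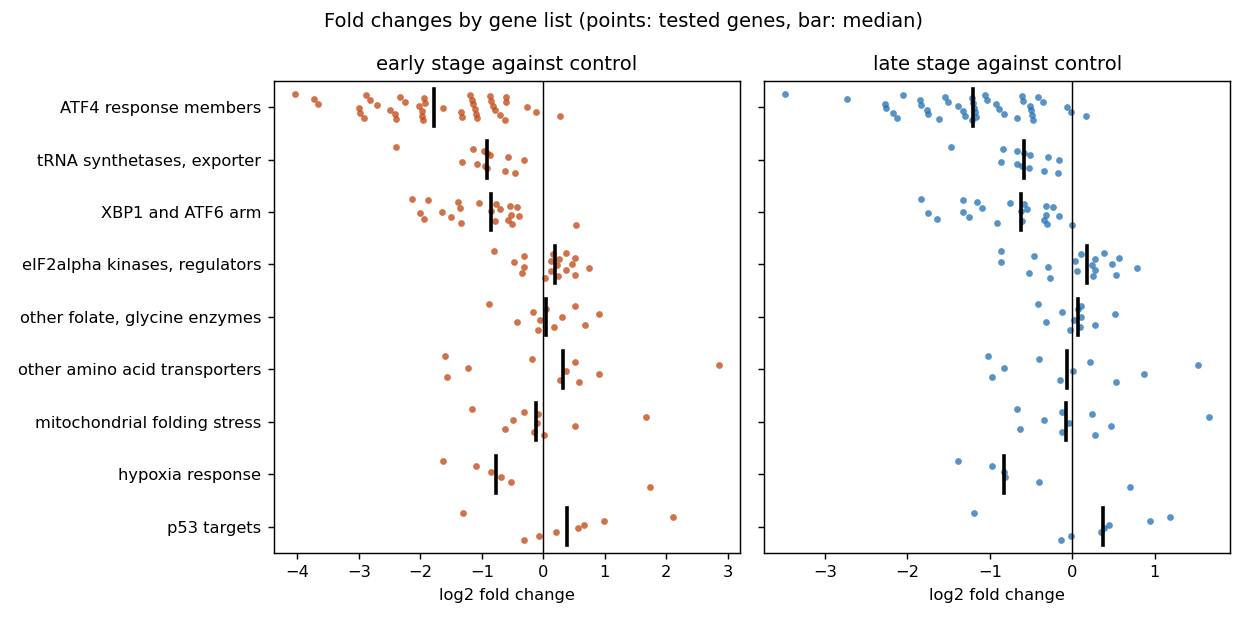
Each point is the log2 fold change of a tested gene against the controls (early stage left, late stage right), by gene list, and bars are list medians. The members (medians -1.77 and -1.20), the tRNA synthetases (-0.92 and -0.59) and the XBP1 and ATF6 arms (-0.85 and -0.62) lie left of 0, whereas the list of eIF2α kinases and regulators is centred near 0.

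Lists that share functions with the members were mixed in direction in the early stage, where 10.1% of all genes fell and 7.92% rose. Of 10 further amino acid transporters tested, 3 fell (SLC38A1 by 1.60, SLC6A6 by 1.56 and SLC43A1 by 1.22 on the log2 scale) and 2 rose (SLC7A8 by 2.86 and SLC38A5 by 0.90). SLC7A8, a neutral amino acid exchanger that pairs with SLC3A2 like SLC7A5, was at 31.5 and 35.3 CPM in the controls, 228, 306 and 196 CPM across the early stage lines, 137 (50 nM) and 55.4 (200 nM). Of 11 further folate and glycine cleavage enzymes tested, 1 fell and 1 rose, with log2 fold changes between -0.88 and 0.91 over the list. TYMS, which makes thymidylate, had a log2 fold change of 0.52. Of 10 genes of the mitochondrial folding stress response, LONP1 and HSPA9 fell by 1.16 and 0.62 and HSPE1 and HSPD1 rose by 1.67 and 0.51. Of 8 p53 targets, BBC3 fell by 1.30 and SESN1, a relative of SESN2, rose by 0.99.

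Of 6 hypoxia response genes, which VEGFA is also known to follow, only the glucose carrier SLC2A1 passed, rising by 1.73 on the log2 scale. The hypoxia list had a median log2 fold change of -0.77 in the early stage, and the drug naive line had the highest level of 5 of the 6 genes tested. VEGFA was highest in the same line, and whether the difference between the controls in hypoxia genes bears on its value was not tested.

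The labels give the cell type of all lines as erythroblast, and markers of erythroid cells were present in all 7. Their summed level over 16 genes was 4516 CPM in the drug naive line, 3943 in DMSO, 12940, 14280 and 11220 in the lines of 10, 15 and 25 nM, followed by 7310 (50 nM) and 5109 (200 nM), and HBG2 was the most abundant. It was thus highest in the lines in which the ATF4 members were lowest. In the early stage 5 of the 16 rose at an FDR of 0.005, against 7.92% of all genes, and 13 were higher at an FDR of 0.05, against 22.6% of all genes. Among the 5, the transferrin receptor TFRC rose by 1.13 and the erythropoietin receptor EPOR by 0.99 on the log2 scale. The globin pairs HBG1 and HBG2 and HBA1 and HBA2 are near-identical copies, so that counts may be split between them. The part of erythroid genes in the ATF4 result was not tested. Megakaryocyte markers summed to 72.3 and 59.6 CPM in the controls, 16.9, 8.76 and 16.4 CPM across the early stage lines, 61.0 (50 nM) and 100.9 (200 nM), nearly all of it from ITGA2B. Markers of lymphoid cells, monocytes and granulocytes, and stromal and endothelial cells summed to between 7.33 and 109 CPM in any line, led by CD3D, LYZ and COL1A1. No marker was at 0 in all 7 libraries, and 1 or 2 genes of each list other than the erythroid one had no more than 3 counts in every library.

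Some members share sequence with a neighbouring gene. In the GRCh37 annotation (GRCh37 and hg19 are the same build), exons of 9 of the 42 members overlap those of another protein-coding gene, 8 of them on the opposite strand. MTHFD2 has the longest overlap, with 1324 exonic bases shared with SLC4A5 on the other strand. ATF5 (hg19 chromosome 19, from 50431959 to 50437192) shares 565 exonic bases with NUP62 on the other strand, DDIT3 shares 355 with the methionyl-tRNA synthetase gene, and CCPG1 (chromosome 15, from 55632230 to 55700708) shares 443 with PIGB. The libraries were directional, but the sources used here do not say whether reads were counted by strand. ASNS (chromosome 7, from 97480989 to 97501854), ATF4 (chromosome 22, from 39915700 to 39918688) and INHBE (chromosome 12, from 57846106 to 57853063) had no such overlap.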

How the data were processed

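The authors prepared 1 directional library, depleted of ribosomal RNA, from each of 7 K562 lines. Reads were mapped with STAR (hg19), and the raw counts that the authors deposited were made per gene with featureCounts. The submitters' processing notes also name FastQC and edgeR. The authors' tables of their own comparisons hold fold changes and p-values that were not used here. Only gene ID, symbol, chromosome and length were taken from them.

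A gene was tested if 2 or more libraries reached 10 CPM (10452 of 25702). Counts were TMM scaled and analysed in edgeR 4.0.16 under R 4.3.3 (glmQLFit and glmQLFTest, all 7 libraries, 1 coefficient per group, Benjamini-Hochberg adjustment over all genes). The limit was an FDR of 0.005, with 0.05 beside it for late against early stage. The common dispersion was 0.026. Log2 levels used a prior count of 2. Standard errors were derived from the fold change and its F statistic. Depth was between 20059656 and 27844799 counts, and floors of 3 counts cover counting error only.

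Members and lists were chosen with earlier results of these data known. All members could be named. Of the other lists, the 3 genes with the smallest p in each direction among those called in a comparison were named, and EIF2AK1 to EIF2AK4, XBP1, ATF6 and HSPA5 always. Further genes named from these lists were chosen after their values were seen. DESeq2 1.42.0, limma 3.58.1 (voom), other scalings and filters, and leaving out each library in turn were alternatives. The functions were tested on simulated data. Promoters came from RefSeq (GRCh38.p14). Not every gene of the lists is reported.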

Additional observations from a re-analysis of the deposited data

Results flagged for a closer look

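The level of 19 members differed between late and early stage lines at an FDR of 0.05 (edgeR quasi-likelihood test, Benjamini-Hochberg adjustment over all genes). At this limit, 6.60% of all genes tested were higher in the late stage. The stages were set by clustering of the same libraries, so this FDR is not independent of the grouping. At an FDR of 0.005 no member and no other gene was called. In each case the late stage value was closer to the controls. The late stage level exceeded the early stage level by 1.37 on the log2 scale for DDIT4, 1.31 for INHBE, 1.28 for SLC38A2, 1.27 for GPT2, 1.2 for VEGFA and 1.07 for PSAT1. The difference was 0.94 for CTH, 0.76 for SESN2, 0.74 for STC2, 0.71 for ALDH1L2, 0.67 for SLC7A1 and 0.66 for MTHFD2. It was 0.58 for ASNS, 0.58 for CCPG1, 0.56 for TUBE1, 0.54 for PHGDH, 0.49 for SLC7A5, 0.41 for CEBPG and 0.40 for SHMT2. None of the 19 kept this call with every single library left out. Without the 200 nM line, where the late stage is 1 library, none was called, but all 19 differences were still positive, from 0.318 for TUBE1 to 1.33 for INHBE.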

How the results depend on the processing

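In the early stage, the count of 33 members lower was between 33 and 37 under the other scalings, tests, filters and limits, and between 14 and 36 with 1 library left out. In the late stage, the count of 19 was 31 with DESeq2 and 33 at an FDR of 0.05, and between 2 and 16 with 1 library left out. It was 13 when only the groups compared were fitted. For late against early stage lines, the count of 0 was 16 with DESeq2, 2 with no filter on low counts and 19 at an FDR of 0.05, and between 0 and 3 with 1 library left out. Of all genes, 5.41% were higher in that comparison with DESeq2, 0.812% with no filter and 6.6% at an FDR of 0.05. Single members were followed in the early stage for all 40 tested, and in each of the other comparisons for the 19 called. Of these values, PYCR1 in the early stage was the only one to change sign, with log2 fold changes between -0.197 and 0.003 with 1 library left out and 0.003 without the 10 nM line. In the early stage, 64 of 640 values for members lost their call, all of them with a library left out, and 20 gained one. In the late stage 75 of 304 lost it, 61 of them with a library left out, and for late against early stage 97 of 304, 81 of them with a library left out. The mean levels by line moved by less than the spread between lines when libraries were scaled by total count only. Counts of the other lists were recomputed under the same alternatives, which was chosen after seeing the data. No paired analysis was possible because each line had 1 library and no line has a partner in another group. The tests compare lines of a single derivation, without a repeat library of any line, and cannot separate dose from time in culture.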
